A study of Homo sapiens with 6 samples.

Results

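The 8 neuroendocrine lineage genes NCAM1, FOXA2, SCG3, INSM1, CHGA, SYP, ENO2 and NEUROD1 were examined for chromatin binding of the SWI/SNF remodelling complex in prostate cancer cells. The genes were taken from a list, and a peak was counted at a gene when its summit lay inside the gene span or within 100 kb of either end. All 8 matched the 20037 protein-coding genes of the RefSeq table (GRCh38.p14). In MR49F cells 51 of 44308 BRG1 peaks and 49 of 47615 SMARCC2 peaks fell at these genes, and in LNCaP cells 30 of 36174 BRG1 peaks and 12 of 25706 SMARCC2 peaks did.

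MR49F is an enzalutamide-resistant prostate cancer line and was grown with 10 µM enzalutamide, an androgen receptor antagonist. LNCaP is the enzalutamide-sensitive line from which MR49F was derived, and its medium is given with the same serum and no drug. Line and drug exposure therefore cannot be told apart. ChIP-seq was done on cells fixed with 2 mM disuccinimidyl glutarate and 1% formaldehyde, with antibodies to BRG1, the ATPase of the complex, and to SMARCC2, one of its core scaffold subunits. Each line is a single cell line with 1 library per antibody, so no value has a replicate error and no p-value was computed.

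Neuroendocrine cells store peptide hormones in dense-core granules and release them on stimulation. Prostate adenocarcinoma treated with androgen receptor inhibitors can take on features of such cells, and pathologists recognise this by staining for chromogranin A, synaptophysin, neuron-specific enolase and CD56. The programme is driven by transcription factors such as INSM1, NEUROD1 and FOXA2, and in other cell types many of its genes are held silent by the repressor REST, which binds the RE1 sequence. SWI/SNF uses ATP to slide or evict nucleosomes and so changes access to DNA. The comparison asks where its subunits were found at the neuroendocrine genes in each line.

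The read number is not given with the peak lists. Solved from the deposited peak statistics with an assumed effective genome of 2.7 Gb, it was about 20.4 M reads for MR49F BRG1, 25.2 M for LNCaP BRG1, 18.4 M for MR49F SMARCC2 and 26.6 M for LNCaP SMARCC2. Among the weakest peaks of each list by q-value the median summit had 16, 20, 16 and 21 reads in the same order, which is 0.783, 0.793, 0.868 and 0.79 RPM (reads at the summit divided by the M reads of the library). The libraries differ in depth, so summits of the lines are compared in RPM and not in reads. A region without a peak is not shown to lack the protein. The limit for a call was not fixed at this size and rose with the local background. In the ENO2 window an MR49F SMARCC2 summit of 27 reads (1.46 RPM), over a background of 11.3 reads, ranked only within the top 97.6% of its list. Of 13 luminal prostate markers, 7 and 9 had a peak at the gene start in MR49F with BRG1 and SMARCC2, and 7 and 8 in LNCaP, whereas none of the 3 basal markers had one in any list. Of 4 leukocyte and 4 fibroblast markers, 1 each had a BRG1 start peak in MR49F and in LNCaP, and none had a SMARCC2 one.

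More peaks were called at the neuroendocrine genes in MR49F than in LNCaP with both antibodies. The MR49F share of the peaks was 63.0% for BRG1 (Wilson 95% interval 52.1 to 72.7, counting error only) and 80.3% for SMARCC2 (68.7 to 88.4). Over the whole lists the shares were 55.1% and 64.9%, so the BRG1 interval includes the whole-list value and the SMARCC2 interval lies above it. The members were chosen with earlier results of these data known, so the position of an interval is a description and not independent support. Without ENO2 the SMARCC2 share was 77.5% (62.5 to 87.7), still the higher value, but its interval included the whole-list share. The interval also included it under most other windows and peak filters. Each gene had a median of 4.5 BRG1 peaks in MR49F and 3.0 in LNCaP, and a median of 6.0 in MR49F against 1.0 in LNCaP for SMARCC2. Over all protein-coding genes the medians were 6.0 and 5.0 for BRG1, and 6.0 and 3.0 for SMARCC2. The median difference between lines was 2.5 BRG1 and 3.5 SMARCC2 peaks at the 8 genes, and 1.0 and 2.0 peaks over all genes.

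**Figure D1:**
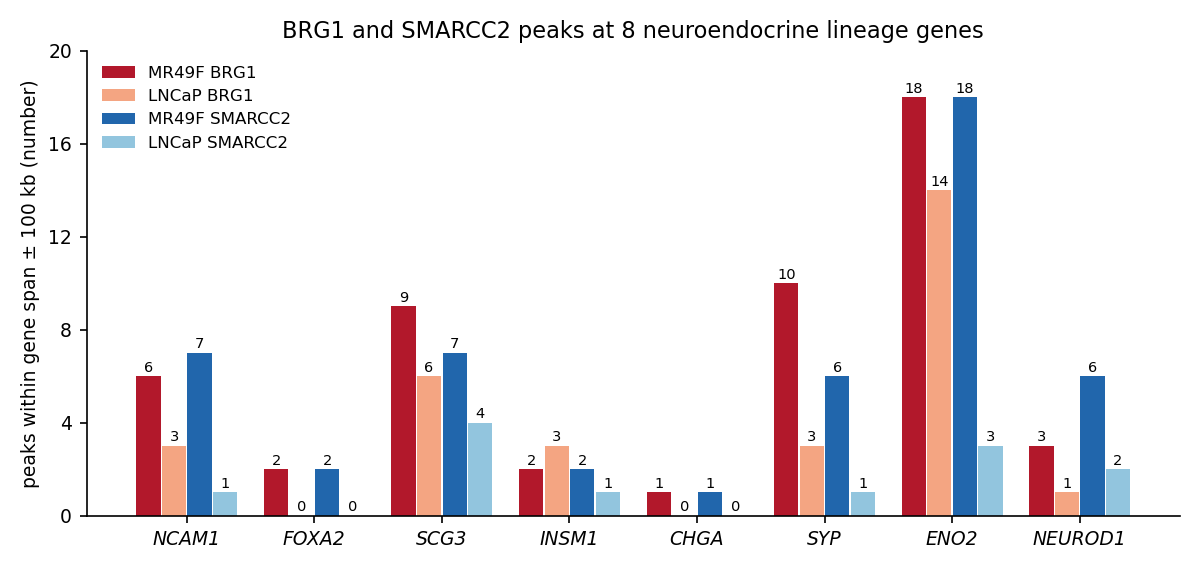
Number of peaks with a summit inside each gene span or within 100 kb of it, with 4 bars per gene for MR49F BRG1, LNCaP BRG1, MR49F SMARCC2 and LNCaP SMARCC2 (1 library each). ENO2 has the most peaks, and INSM1 is the gene at which LNCaP BRG1 (3 peaks) exceeds MR49F BRG1 (2 peaks).

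Counted per gene, 7 of the 8 had more BRG1 peaks in MR49F, as did 58.2% of all protein-coding genes. All 8 had more SMARCC2 peaks in MR49F, against 79.1% of all genes. Both antibodies gave more peaks in MR49F at 7 genes, all but INSM1, against 53.8% of all genes. None of the 8 had more peaks in LNCaP with both antibodies, which was seen at 3.94% of all genes. A majority of genes thus had more MR49F peaks in any case, and the small number of members limits what their count can show.

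Among the transcription factor genes, FOXA2 had peaks called in MR49F and none in LNCaP. FOXA2, a forkhead factor of gut endoderm that is also found in neuroendocrine prostate tumours, had BRG1 peak counts of 2 in MR49F against 0 in LNCaP, and SMARCC2 counts of 2 in MR49F against 0 in LNCaP. The stronger of its 2 regions lay inside the gene at chr20:22583741-22584397 (hg38), with the BRG1 summit 1528 bp from the nearer gene end. There BRG1 had 25 reads at the summit in MR49F, 5.55-fold over local background, and SMARCC2 had 17 reads and 4.11-fold. A second region, chr20:22490362-22491101, lay 90267 bp away with 16 BRG1 and 13 SMARCC2 reads in MR49F. No other protein-coding gene reached into this window, so every one of its peaks had FOXA2 as the nearest gene.

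NEUROD1, a basic helix-loop-helix factor of neurons and endocrine cells, also had a region inside the gene that both antibodies called in MR49F only. It had BRG1 peak counts of 3 in MR49F against 1 in LNCaP, and SMARCC2 counts of 6 in MR49F against 2 in LNCaP. The region inside the gene, chr2:181677699-181678346, had summits 2401 bp (BRG1) and 2404 bp (SMARCC2) downstream of the start. It held 19 BRG1 reads (4.84-fold, 0.929 RPM) and 20 SMARCC2 reads (5.5-fold, 1.08 RPM) in MR49F. The weakest LNCaP peaks had medians of 0.793 RPM (BRG1) and 0.79 RPM (SMARCC2). Upstream, chr2:181771130-181771916, 91006 bp from the gene, was called in all 4 lists. It had 24 BRG1 reads in MR49F and 20 in LNCaP, and 39 SMARCC2 reads in MR49F and 20 in LNCaP. Scaled to depth these are 1.17 RPM in MR49F and 0.793 in LNCaP for BRG1, and 2.12 RPM in MR49F and 0.752 in LNCaP for SMARCC2. A BRG1 peak of MR49F with 29 reads lay 62792 bp upstream, and 2 SMARCC2 peaks of MR49F on the downstream side were nearer to CERKL and ITGA4. The start of NEUROD1 had no peak in any list.

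INSM1, a zinc finger repressor needed for endocrine and neuronal differentiation, differed from the other genes in having no region specific to MR49F with both antibodies. It had BRG1 peak counts of 2 in MR49F against 3 in LNCaP, and SMARCC2 counts of 2 in MR49F against 1 in LNCaP. None of them lay inside INSM1. A region called in all 4 lists, chr20:20360472-20361896, had its summits 43 to 94 bp from an end of CFAP61, a gene of the sperm and ciliary axoneme. It held 27 BRG1 reads in MR49F and 26 in LNCaP, and 17 SMARCC2 reads in MR49F and 21 in LNCaP. Scaled to depth these are 1.32 RPM in MR49F and 1.03 in LNCaP for BRG1, and 0.922 RPM in MR49F and 0.79 in LNCaP for SMARCC2.

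The granule genes CHGA and SCG3 showed contrasting pictures. CHGA encodes chromogranin A, a granule protein measured in serum as a marker of neuroendocrine tumours, and it had 1 peak of each antibody in MR49F and 0 in LNCaP. That region, chr14:92849002-92849492, held 22 BRG1 and 23 SMARCC2 reads, but its summits lay 73439 bp (BRG1) and 73463 bp (SMARCC2) outside the CHGA span and nearest to GOLGA5, a Golgi gene. No list had a peak inside CHGA or at its start.

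SCG3 encodes secretogranin III, which helps to sort chromogranin A into granules. Both antibodies called its start in MR49F only and a region near its other end in LNCaP only. The gene had BRG1 peak counts of 9 in MR49F against 6 in LNCaP, and SMARCC2 counts of 7 in MR49F against 4 in LNCaP. At the gene start, chr15:51681296-51681998, MR49F had 40 BRG1 reads (8.0-fold, −log10 q-value 22.8) and 33 SMARCC2 reads (6.87-fold, −log10 q-value 17.1), and LNCaP had no peak. Near the other end, chr15:51719451-51720770, the relation was turned round: MR49F had no peak, and LNCaP had 34 BRG1 reads (6.46-fold, −log10 q-value 15.3) and 42 SMARCC2 reads (7.56-fold, −log10 q-value 19.9). This was the single region at the 8 genes that both antibodies called in LNCaP and neither called in MR49F. Another region inside SCG3, 26.9 kb from the start, was shared, with 23 BRG1 reads (1.12 RPM) in MR49F and 32 (1.27 RPM) in LNCaP, and 19 SMARCC2 reads in MR49F. Outside the gene, both antibodies called chr15:51751514-51752204 (22 BRG1 and 23 SMARCC2 reads) and chr15:51816487-51817386 (18 and 18 reads) in MR49F only, each within 1 kb of an end of TMOD2. By q-value the strongest region for MR49F SMARCC2, chr15:51792650-51794493 in TMOD2, was called in all 4 lists. It had 54 BRG1 reads (2.64 RPM) in MR49F and 39 (1.55 RPM) in LNCaP, and 70 SMARCC2 reads (3.8 RPM) in MR49F and 33 (1.24 RPM) in LNCaP. For MR49F BRG1 the strongest region was chr15:51621956-51623991, nearest to DMXL2 and called in all 4 lists, with 55 reads (2.69 RPM, 8.43-fold). The strongest LNCaP BRG1 peak, with 42 reads and 7.48-fold, was in a region called in all 4 lists and nearest to LYSMD2. For LNCaP SMARCC2 the strongest was the region near the far gene end given above.

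**Figure D2:**
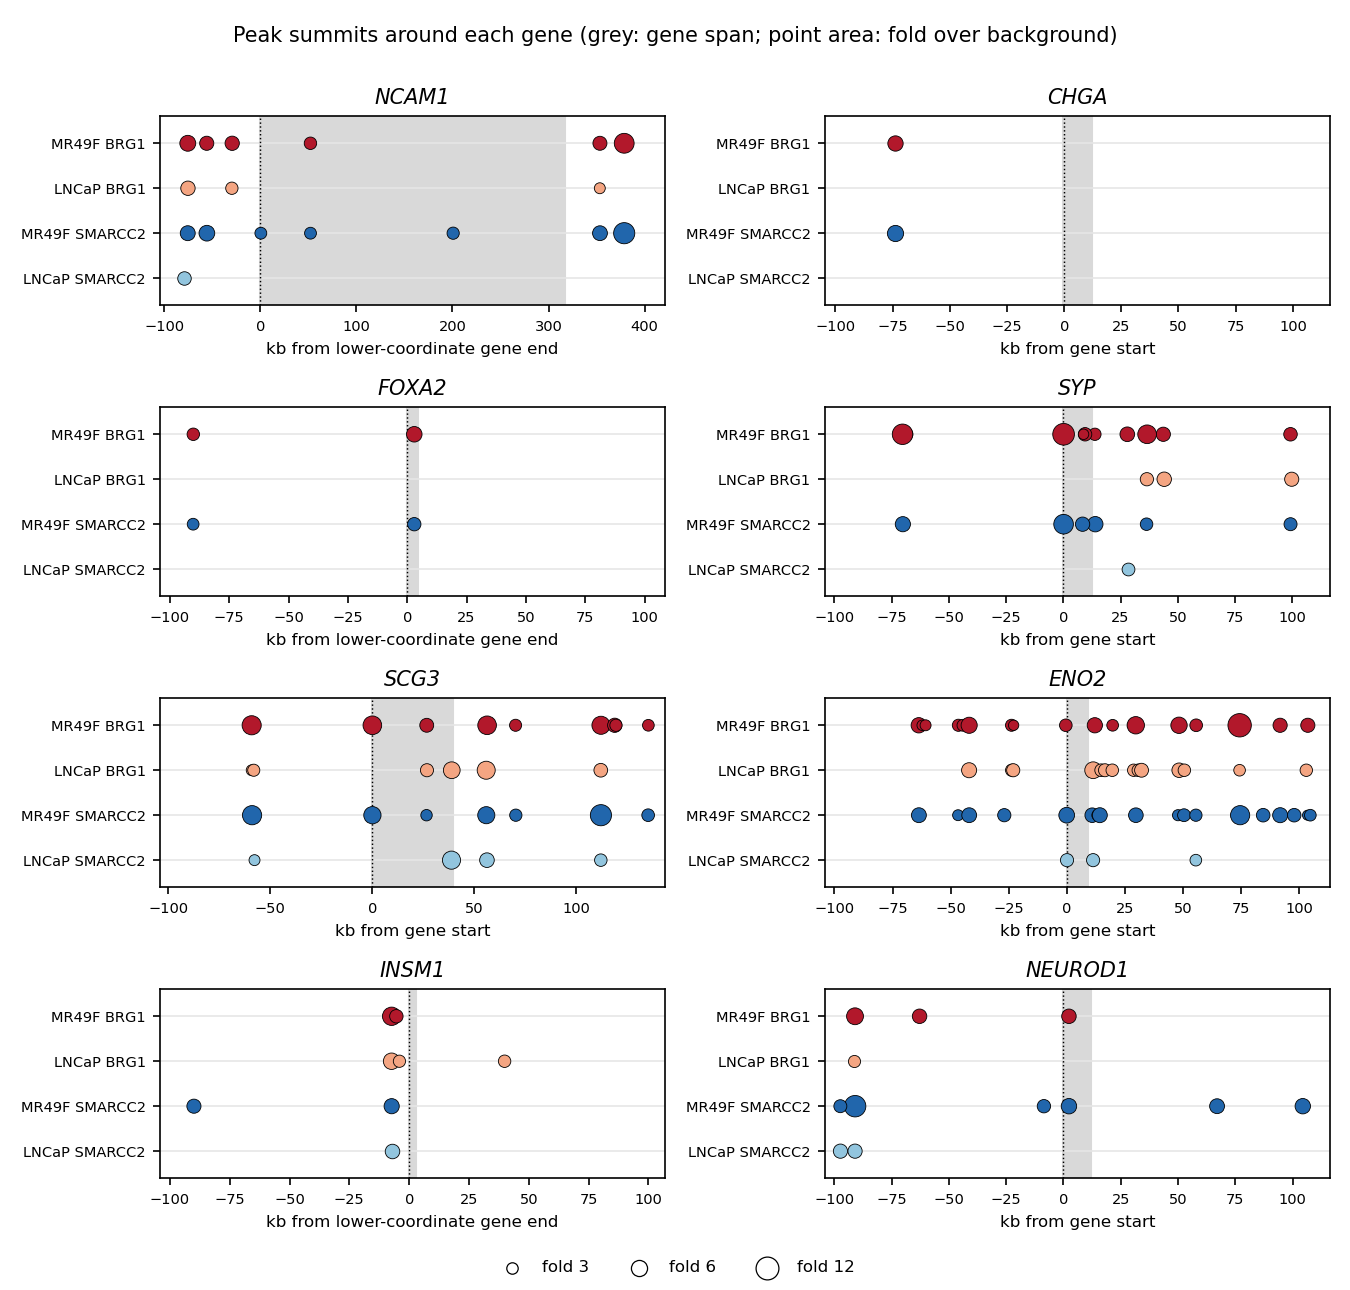
Positions of peak summits in kb from the gene start (from the lower-coordinate gene end for NCAM1, FOXA2 and INSM1), 1 row per library, with the gene span in grey and point area proportional to fold over background. SCG3 carries MR49F points at its start and LNCaP points near its far end, and FOXA2 and CHGA have no LNCaP points.

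SYP encodes synaptophysin, a membrane protein of synaptic and granule vesicles, and its start was called with both antibodies in MR49F alone. The gene had BRG1 peak counts of 10 in MR49F against 3 in LNCaP, and SMARCC2 counts of 6 in MR49F against 1 in LNCaP. None of the LNCaP peaks lay inside SYP. At the start, chrX:49199561-49200378, MR49F had 38 BRG1 reads (10.8-fold) and 29 SMARCC2 reads (8.84-fold), with summits 135 and 134 bp downstream of the start site. This BRG1 peak stood within the top 11.0% of its list by q-value. A further MR49F region inside the gene, chrX:49191325-49191995, had 19 BRG1 reads at 2.54-fold and 26 SMARCC2 reads at 4.71-fold. The other MR49F-only regions of both antibodies were chrX:49185465-49186533 at PRICKLE3, with 20 BRG1 and 26 SMARCC2 reads, and chrX:49269898-49272128 at PPP1R3F, with 36 and 18 reads. SYP lies on chromosome X. The median local background at the called peaks of the surrounding 10 Mb, set against autosomes, was compared between the lines. Its MR49F to LNCaP ratio was 1.43 for BRG1 and 1.58 for SMARCC2. Each list was measured at its own peaks, so the ratio is not a measure of coverage over the whole stretch. Those 10 Mb held BRG1 peak counts of 195 in MR49F against 92 in LNCaP, and SMARCC2 counts of 191 in MR49F against 41 in LNCaP. The part of this regional difference in the SYP counts was not tested.

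ENO2 encodes neuron-specific enolase, a glycolytic enzyme, and it lies in a gene-dense stretch with 15 other protein-coding genes in its window. Its window held BRG1 peak counts of 18 in MR49F against 14 in LNCaP, and SMARCC2 counts of 18 in MR49F against 3 in LNCaP. The SMARCC2 difference of 15 peaks was equalled or exceeded by 0.419% of all protein-coding genes, and the BRG1 difference of 4 peaks by 18.6%. For the other members these percentages ran from 17.7% (NCAM1) to 79.1% (INSM1 and CHGA) for SMARCC2, and from 4.99% (SYP) to 89.2% (INSM1) for BRG1. Only 2 of these peaks had ENO2 as the nearest gene, however, both of them SMARCC2 and 1 in each line. The strongest region in MR49F, chr12:6987765-6990159, lay inside EMG1 and LPCAT3. It held 69 BRG1 reads in MR49F (3.37 RPM, 12.6-fold) and 42 in LNCaP (1.66 RPM, 3.11-fold), and 51 SMARCC2 reads in MR49F. Both antibodies called 3 regions in MR49F only: chr12:6850515-6851122 at CDCA3 (28 BRG1 and 24 SMARCC2 reads), chr12:6866604-6868820 at TPI1 (30 and 25 reads) and chr12:7006052-7006871 inside LPCAT3 (22 and 23 reads). The region called in all 4 lists, chr12:6923998-6931512, overlapped ATN1 and held the strongest LNCaP peak of each antibody by q-value. At the ENO2 start, chr12:6914010-6915444, there were 24 SMARCC2 reads (1.3 RPM) in MR49F and 17 (0.639 RPM) in LNCaP. The weakest SMARCC2 peaks of LNCaP had a median of 0.79 RPM. The BRG1 peak of MR49F at the ENO2 start had 21 reads. Its summit lay 442 bp upstream of the start and 91 bp from an end of LRRC23. LNCaP had no BRG1 peak. ENO2 was thus the only member with a LNCaP peak at its start.

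NCAM1 encodes CD56, a neural cell adhesion molecule, and its 317.0 kb span was sparsely occupied. It had BRG1 peak counts of 6 in MR49F against 3 in LNCaP, and SMARCC2 counts of 7 in MR49F against 1 in LNCaP. Inside the gene 1 BRG1 and 3 SMARCC2 peaks were called in MR49F and 0 in LNCaP, all of them with 15 or 16 reads at the summit and folds of 3.23 to 3.57, ranking between the top 85.9% and 94.8% of their lists. One of these was a SMARCC2 peak at chr11:112961994-112962769, within 1 kb of the lower-coordinate end of the gene. Both antibodies called chr11:113013392-113014045 in MR49F only, with 16 BRG1 and 15 SMARCC2 reads. The strongest region of the window, chr11:113339757-113341531, was found in MR49F only, with 32 BRG1 reads (9.05-fold) and 34 SMARCC2 reads (10.3-fold), and lay inside the neighbouring gene TTC12. Another MR49F-only region, chr11:112905204-112906279, had 18 BRG1 and 24 SMARCC2 reads.

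Gene starts were compared across the lists, with either gene end counted for NCAM1, FOXA2 and INSM1. In MR49F BRG1, 3 of 8 members had a peak within 1 kb of the start (ENO2, SCG3 and SYP), against 51.0% of all protein-coding genes. No member had one in LNCaP BRG1, against 38.1% of all genes. For SMARCC2 there were 4 members in MR49F (NCAM1, ENO2, SCG3 and SYP), against 47.9%, and 1 in LNCaP (ENO2), against 26.9%. SCG3 and SYP had both antibodies in MR49F and neither in LNCaP, a pattern seen at 11.5% of all genes, and none of the 8 had the reverse, seen at 1.08%. In LNCaP fewer of the 8 genes than the share of all genes had a start peak with either antibody, and in MR49F this was so for BRG1 and not for SMARCC2, in counts of 0 to 4 genes.

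The promoters of the 3 genes with BRG1 at the start are shown because the MR49F peaks overlap them. Each runs from 250 bases before to 50 bases after the start site, 5′ to 3′ on the gene's strand (RefSeq, GRCh38.p14). Capitals mark matches of 7 letters or more to the motifs named below, searched on both strands, except those to TGANTCA. For that motif only the form TGACTCA, added after the data were seen, is marked.
SCG3 (chr15:51681253-51681552, plus strand): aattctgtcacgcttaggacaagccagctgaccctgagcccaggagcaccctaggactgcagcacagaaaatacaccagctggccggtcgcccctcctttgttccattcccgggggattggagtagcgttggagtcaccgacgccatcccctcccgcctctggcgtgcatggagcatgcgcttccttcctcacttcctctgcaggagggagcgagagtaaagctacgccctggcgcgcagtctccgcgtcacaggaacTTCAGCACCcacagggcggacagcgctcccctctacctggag
SYP (chrX:49200144-49200443, minus strand): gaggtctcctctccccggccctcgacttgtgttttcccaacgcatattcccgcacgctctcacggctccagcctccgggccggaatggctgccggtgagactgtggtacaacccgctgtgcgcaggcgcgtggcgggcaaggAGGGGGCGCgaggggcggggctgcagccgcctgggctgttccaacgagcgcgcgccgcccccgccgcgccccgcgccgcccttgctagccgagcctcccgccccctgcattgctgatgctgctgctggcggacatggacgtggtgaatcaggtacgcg
ENO2 (chr12:6914330-6914629, plus strand): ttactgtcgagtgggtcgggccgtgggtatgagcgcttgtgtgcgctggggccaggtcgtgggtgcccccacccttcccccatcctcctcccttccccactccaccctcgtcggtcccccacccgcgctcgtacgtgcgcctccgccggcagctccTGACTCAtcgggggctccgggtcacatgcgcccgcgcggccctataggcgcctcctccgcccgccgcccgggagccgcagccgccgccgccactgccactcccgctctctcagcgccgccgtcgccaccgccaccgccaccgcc

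The SCG3 promoter held TTCAGCACC, the left part of the RE1 sequence bound by REST, at bases 8 to 16 after the start site. It is found in 0.351% of 22199 promoters searched, and the summits of the BRG1 and SMARCC2 peaks lay 35 and 59 bp after the start. The right part, searched as GACAGCGCC (0.68% of promoters), had no exact match in any of the 5 member promoters in the table. In SCG3 the letters gacagcgct, which differ from it in the last letter, follow the left part on the same strand. Matches with a differing letter were not counted over the promoters. SYP held AGGGGGCGC, a core of the CTCF motif found in 2.44% of promoters, at bases −108 to −100. ENO2 held the AP-1 sequence TGACTCA, searched after the data were seen and found in 4.01% of promoters. The wider search for TGANTCA (6.15%) also matched SYP, with TGAATCA, which is not of the AP-1 form and is left in lower case. CHGA, whose start had no peak in any list, held the cyclic AMP response element TGACGTCA (2.26% of promoters) at bases −54 to −47. The forkhead sequences TGTTTAC (2.85%) and TGTTTGC (3.4%) and the androgen response element sequence AGAACA (11.7%) had no match in the 5 promoters. All 5 held the GC box GGGCGG, present in 56.3% of promoters, on either strand. SCG3, ENO2 and CHGA held an E-box CANNTG (65.1%), of the form CAGCTG (18%) in SCG3, and none of the 5 held CAGATG or its complement CATCTG (12.2%). TGACG, which lies within TGACGTCA, was found in NEUROD1, CHGA and SCG3 (27.9%). GC content of the 5 promoters was 62.0% to 75.0%, against a median of 62.3% over all promoters. A match describes the letters and does not show binding.

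Regions inside the gene spans numbered 12. Both antibodies called 6 of them in MR49F and neither in LNCaP, which is 50.0% (25.4 to 74.6), against 17.7% of the 39452 regions inside all protein-coding genes. The reverse was seen at 1, in SCG3, which is 8.33% (1.49 to 35.4), against 3.76%. The MR49F summits in them ranged from 15 reads in NCAM1 to 40 reads in SCG3. No region inside a member was called in all 4 lists, against 25.5% inside all genes.

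**Figure D3:**
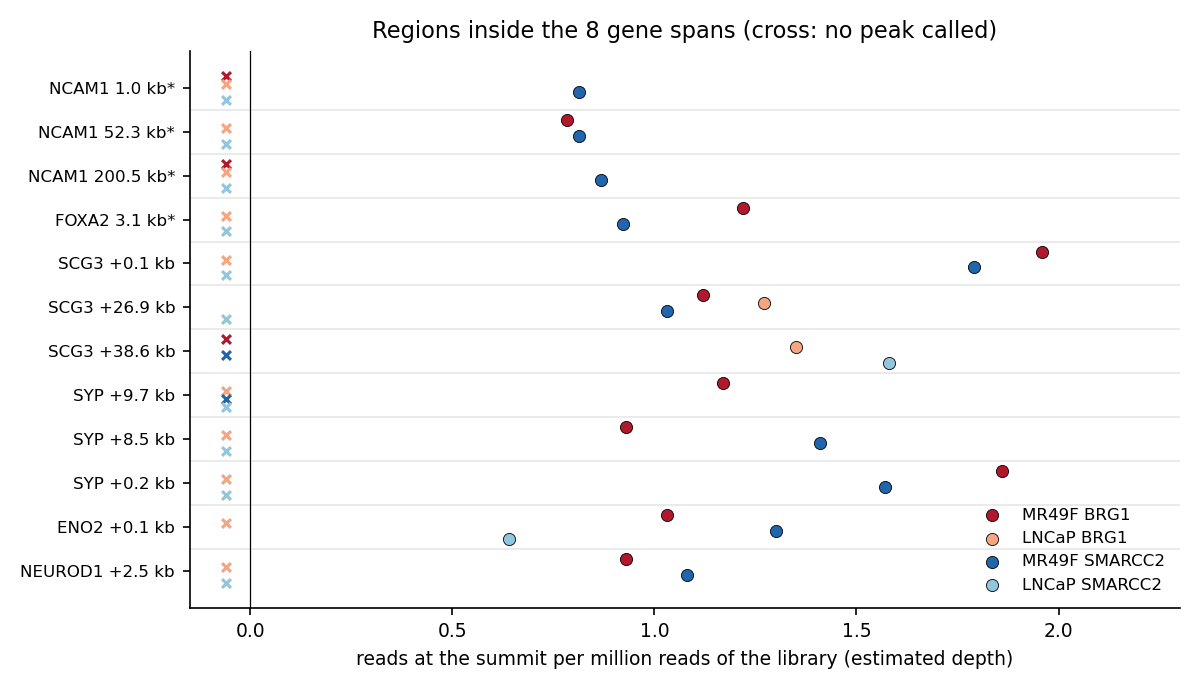
Summit reads of each library, in RPM, for all regions inside the gene spans, labelled by the distance of the region midpoint from the gene start (asterisk: from the lower-coordinate gene end), with crosses where no peak was called. The start regions of SCG3 and SYP have MR49F points between 1.57 and 1.96 RPM and crosses for LNCaP, and the region of SCG3 38.6 kb from the start has LNCaP points of 1.35 and 1.58.

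Joining overlapping peaks of the 4 lists gave 67 regions at the 8 genes. Both antibodies called 17 of them in MR49F and neither in LNCaP, which is 25.4% (16.5 to 36.9), against 18.3% of 65483 regions in the genome. The single LNCaP-only region makes 1.49% (0.264 to 7.98), against 3.67%. Regions called in all 4 lists numbered 6, or 8.96% (4.17 to 18.2), against 22.7%, so the interval lay below the genome share. At least 1 MR49F-only region was present at 7 members, all but INSM1, and 70.2% of all genes had one. An LNCaP-only region was present at 1 member, and 21.4% of all genes had one. The MR49F-only regions numbered 4 at SYP, 3 each at NCAM1, SCG3 and ENO2, 2 at FOXA2 and 1 each at CHGA and NEUROD1.

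BRG1 and SMARCC2 peaks were also compared for how often they coincided within a line. In MR49F 68.6% (55.0 to 79.7) of 51 BRG1 regions also had a SMARCC2 peak, against 79.9% of all BRG1 regions of that line. In LNCaP 26.9% (13.7 to 46.1) of 26 BRG1 regions had one, against 56.4% of all. The share over all BRG1 regions was thus also lower in LNCaP, and the difference between lines was not tested. The ENO2 window held 11 of the 26 LNCaP regions, and 1 of those 11 had a SMARCC2 peak. Of SMARCC2 regions, 76.1% (62.1 to 86.1) of 46 in MR49F and 58.3% (32.0 to 80.7) of 12 in LNCaP had a BRG1 peak, against 75.3% in MR49F and 80.2% in LNCaP over all regions.

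Most of the peaks counted at the 8 genes were nearer to another gene. The nearest gene end belonged to the member for 14 of 51 BRG1 peaks in MR49F and 5 of 30 in LNCaP, and in SMARCC2 for 16 of 49 in MR49F against 5 of 12 in LNCaP. In all, 20, 11, 16 and 4 peaks in the order MR49F BRG1, LNCaP BRG1, MR49F SMARCC2 and LNCaP SMARCC2 had a summit no more than 1 kb from the end of some other gene. Neighbours with the most peaks were ATN1 and EMG1 in the ENO2 window, with 10 and 6 over the 4 lists, TMOD2 in the SCG3 window with 10 and CFAP61 in the INSM1 window with 7. Of the other neighbours, TTC12, DMXL2, MAGIX, C12orf57, LPCAT3, LRRC23, PHB2 and SPSB2 had 5 each, LYSMD2 and PTPN6 had 4, and PPP1R3F and WDR45 had 3. Counting only peaks nearest to a member gave an MR49F share of 73.7% for BRG1 (51.2 to 88.2) and 76.2% for SMARCC2 (54.9 to 89.4).

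The peaks at the 8 genes had median folds slightly below those of their lists. Median fold enrichment was 4.63 in MR49F BRG1, 3.79 in LNCaP BRG1, 4.89 in MR49F SMARCC2 and 4.1 in LNCaP SMARCC2, and the medians of the whole lists were 4.79, 4.05, 5.27 and 4.22. In the same order, the best-ranked peak by q-value stood within the top 3.11%, 6.07%, 7.45% and 9.31% of its list. The region inside EMG1 and LPCAT3 was the highest for MR49F BRG1, and the SCG3 end region was the highest for LNCaP SMARCC2.

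The MR49F share was set beside the whole-list share under the same peak filter. With the 25000 strongest peaks of each list it was 52.3% for BRG1 (37.9 to 66.2) and 61.3% for SMARCC2 (43.8 to 76.3), against 50.0% of the whole lists, which equal list lengths fix. With the 10000 strongest it was 61.1% (38.6 to 79.7) and 71.4% (35.9 to 91.8), on 11 MR49F and 7 LNCaP peaks for BRG1 and 5 MR49F and 2 LNCaP peaks for SMARCC2. With summits of at least 1.0 RPM, a setting chosen after seeing the data, it was 70.2% (56.0 to 81.3) for BRG1 and 89.7% (76.4 to 95.9) for SMARCC2, against 61.9% and 72.0% of the whole lists. Over the 10 settings the BRG1 interval included the whole-list share in 10. The SMARCC2 interval included it in 7 and lay above it in 3, which were the window of 100 kb, that of 200 kb and the filter on RPM.

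**Figure D4:**
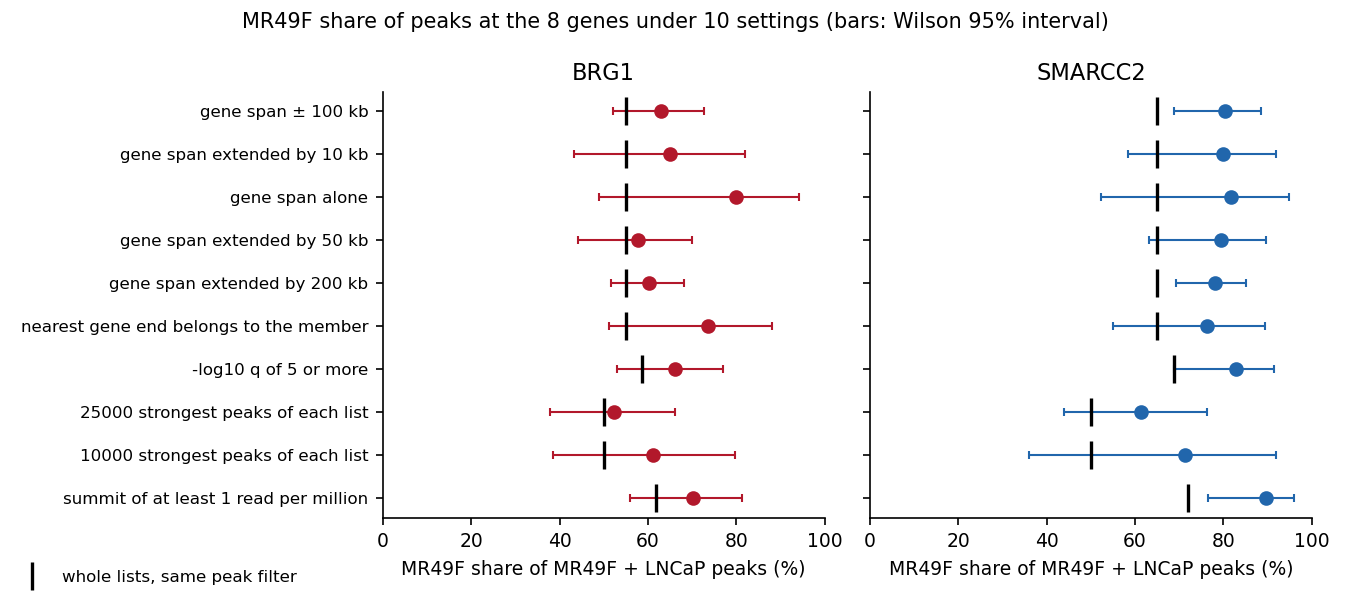
MR49F share of the BRG1 and SMARCC2 peaks at the 8 genes under 10 settings, with Wilson 95% intervals, beside the share of the whole lists under the same peak filter (black tick). The interval includes the tick in 10 settings for BRG1 and in 7 for SMARCC2.

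Local background was compared as the median over the called peaks in the 10 Mb around each gene, each list at its own peaks. Relative to autosomes, the ratio of MR49F to LNCaP was 0.925 at NEUROD1 with BRG1 and 0.942 with SMARCC2. It was 1.07 with both antibodies at SCG3, 1.13 and 1.01 at NCAM1, and 1.12 and 1.1 at CHGA. It was 1.14 with BRG1 at FOXA2, INSM1 and ENO2, and 1.34, 1.4 and 1.35 with SMARCC2. FOXA2 and INSM1 lie on the same chromosome and their 10 Mb windows overlap. SYP had the highest ratios, given above. The ratio of MR49F to LNCaP peak numbers in the same 10 Mb ran from 0.94 at NCAM1 to 2.12 at SYP for BRG1. For SMARCC2 it ran from 1.51 at NCAM1 to 4.66 at SYP, against 1.85 over the whole lists. Between these it was 1.62 at SCG3, 1.76 at NEUROD1, 2.53 at FOXA2, 2.69 at CHGA, 2.74 at INSM1 and 2.78 at ENO2. The part of these regional values in the gene counts was not tested.

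A companion list of 45 other genes, which mark or regulate the neuroendocrine lineage and include its repressor REST and the luminal factor FOXA1, was counted in the same way. BRG1 was called 237 times in MR49F against 166 in LNCaP, which puts 58.8% (53.9 to 63.5) of the peaks in MR49F. SMARCC2 was called 239 times in MR49F against 105 in LNCaP, or 69.5% (64.4 to 74.1). Both intervals include the whole-list shares of 55.1% and 64.9%, so neither differed from them beyond counting error. Both antibodies gave more peaks in MR49F at 27 of the 45 genes, against 53.8% of all genes, and more in LNCaP at 1 (2.22%). MR49F-only regions were present at 30 genes (66.7%, against 70.2% of all) and LNCaP-only regions at 6 (13.3%, against 21.4%). At the start, 10 genes (22.2%, against 11.5%) had both antibodies in MR49F only. They were L1CAM, DLL3, ONECUT2, STMN3, PCSK2, NKX2-2, SST, CPE, ISL1 and POU3F2, named after their values were seen. DLL3 is an inhibitory Notch ligand, ISL1 and NKX2-2 are homeobox factors of endocrine cells, and PCSK2 and CPE process prohormones. The largest difference was at DDC, which encodes the decarboxylase of monoamine synthesis, with BRG1 peak counts of 23 in MR49F against 4 in LNCaP, and SMARCC2 counts of 15 in MR49F against 1 in LNCaP. ELAVL3, a neuronal RNA-binding protein gene, had 10 and 2 BRG1 peaks and 6 and 0 SMARCC2 peaks in MR49F and LNCaP. Neither DDC nor ELAVL3 had a start peak in any list, and the gene nearest to each companion peak is not given here. L1CAM, a neural adhesion molecule gene, had 9 and 2 BRG1 and 7 and 0 SMARCC2 peaks, and DLL3 had 12 and 6 BRG1 and 10 and 4 SMARCC2 peaks.

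At the low end, UCHL1, a neuronal ubiquitin hydrolase gene, had BRG1 peak counts of 8 in MR49F against 10 in LNCaP, and SMARCC2 counts of 10 in MR49F against 11 in LNCaP. FOXA1, the luminal pioneer factor gene, had BRG1 peak counts of 12 in MR49F against 20 in LNCaP, and SMARCC2 counts of 18 in MR49F against 13 in LNCaP. RET, a receptor kinase gene, had 5 and 7 BRG1 peaks and 6 and 6 SMARCC2 peaks, and NEUROG3, an endocrine progenitor factor gene, had 3 and 7 BRG1 and 3 and 1 SMARCC2 peaks in MR49F and LNCaP. REST, named after its values were seen, had a peak at the start in all 4 lists. It had BRG1 peak counts of 7 in MR49F against 9 in LNCaP, and SMARCC2 counts of 7 in MR49F against 6 in LNCaP.

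Genes with a similar set of 4 counts were sought for the members with the most peaks. For ENO2 the nearest were PER1 and BORCS6, each differing by 2 peaks summed over the 4 lists, and FAM89B, the first by symbol of the genes differing by 3 (6 genes differed by 3 or less). SCG3 had the same 4 counts as 10 other genes, of which CERS1, CFD and CPAMD8 come first by symbol.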

How the data were processed

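Peak lists of the 4 precipitated libraries, out of 6 samples, were used, and the 2 input samples are not analysed here. According to the submitters' processing notes the software included BWA 0.7.10, SAMtools and MACS2 2.1.0, with the hg38 build, and no role or order is stated. Which control was used, and any duplicate or read filter, is not given in the sources used here. For every peak the deposited list holds a fold enrichment (a ratio over local background), a −log10 p-value and a −log10 q-value from the authors' peak calling. The deposited display score was left out. The lowest −log10 q-value of a list is 2.001 to 2.014, which is a q-value threshold of 0.01. Wilson intervals cover counting error only.

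The reads at a summit and the local background were solved from fold and p-value under a Poisson model with a pseudocount of 1, after finding the factor by which each library had been scaled (1.0, 0.9708, 1.0 and 0.9197 for MR49F BRG1, LNCaP BRG1, MR49F SMARCC2 and LNCaP SMARCC2). Between 99.79% and 100.0% of peaks were solved to within 0.1% of the deposited −log10 p-value. Depth follows from the lowest background, the shortest peak (346 to 355 bp, taken as fragment length) and an assumed genome of 2.7 Gb. The steps were tested on simulated data. Alternatives varied the window, the peak threshold, the list length, the overlap and the distance to a start, and left out each gene in turn.

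Peaks sharing at least 1 bp were joined into regions, which were assigned to a gene by midpoint. Gene starts came from the RefSeq promoter table (5 of 8 members). Named genes and regions are all 8 members, every region called with both antibodies in a single line, the strongest regions of the windows, the 4 companion genes with the highest and the 4 with the lowest difference between lines, neighbours with 3 or more peaks, and the 3 genes of most similar counts. The members and lists were chosen with earlier results of these data known. Python 3.11.15, NumPy 2.4.6, pandas 2.3.3, SciPy 1.17.1 and matplotlib 3.10.9 were used, in place of bedtools.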

Additional observations from a re-analysis of the deposited data

Results flagged for a closer look

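INSM1 was flagged because the 2 antibodies moved in opposite directions between the lines. The difference of MR49F minus LNCaP peaks was -1 with BRG1 and 1 with SMARCC2. With 1 library per line and antibody this difference was not tested, and it rests on peaks outside the shared region with 14 to 21 reads at the summit.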

How the results depend on the processing

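The SMARCC2 interval no longer lay above the whole-list share with 10 kb (from 58.4%), the span alone (52.3%), 50 kb (63.2%), the nearest gene end (54.9%), a −log10 q-value of 5 or more (68.7%, against 68.9%), the 25000 (43.8%) or 10000 (35.9%) strongest peaks, or without ENO2 (62.5%). The share moved outside its interval for BRG1 with the gene span alone (80.0%) and with the nearest gene end (73.7%), and for SMARCC2 with the 25000 strongest peaks (61.3%) and with summits of at least 1.0 RPM (89.7%, a setting added after the data were seen, under which the whole-list share was 72.0%). Leaving out 1 gene gave 60.3% to 67.3% for BRG1 and 77.5% to 84.0% for SMARCC2. The 7 genes with more MR49F peaks for both antibodies became 4 with spans extended by 10 kb, the span alone, the nearest gene end or the 25000 strongest peaks, and 2 with the 10000 strongest. The 17 MR49F-only regions became 7, 6, 9 and 8 with 10 kb, the span alone, 50 kb and the nearest gene end, and 5 and 3 with the 25000 and 10000 strongest peaks. Narrower windows and shorter lists hold fewer peaks by construction. The 1 LNCaP-only region became 3 with spans extended by 200 kb, 2 with summits within 200 bp, 3 with reciprocal overlap and 0 without SCG3. Of 144 differences of single genes, 102 kept their direction, 36 came to or left 0 and 6 turned round. The reversed ones were SCG3 BRG1 (-2), ENO2 BRG1 (-3) and INSM1 SMARCC2 (-1) with the 25000 strongest peaks, CHGA BRG1 (-1) with 200 kb, ENO2 BRG1 (-1) with 10 kb and ENO2 SMARCC2 (-1) with the span alone. The number of members with a start peak stayed within 1.5 times with 500 bp or 2 kb. No paired analysis was possible because each group has 1 library. Depth limits detection: the weakest called peaks had median summits of 16 to 21 reads.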
